A study of Homo sapiens with 8 samples.

Results

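A375 is an established human cell line from a metastatic melanoma. The cells were left untreated (NT) or received 50 ng/mL human recombinant TNF for 24 hours in 4 independent experiments. Polyadenylated RNA was sequenced in 8 libraries, 4 TNF-treated and 4 NT. By their labels the groups differ only in the cytokine, and each experiment date gave a library of both groups. The comparison described here is that of the genes of the respiratory chain, which were taken by symbol from the deposited table: the NDUF genes of complex I, the SDH genes of complex II, the UQCR genes of complex III, a set of COX genes of complex IV, the ATP5 genes of complex V and the 13 protein-coding genes of the mitochondrial genome. This gave 87 genes of 60710 in the table, 74 of them nuclear (37 of complex I, 4 of complex II, 8 of complex III, 10 of complex IV and 15 of complex V) and 13 mitochondrial (7 of complex I, 1 of complex III, 3 of complex IV and 2 of complex V). All 87 had counts and all 87 passed the filter on low counts, from 291 to 44740 counts in a library for nuclear genes and from 3753 to 307165 for mitochondrial genes. CYC1, NDUFAB1 and the subunits named by other symbols fell outside the rule and were kept in a separate list.

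The respiratory chain sits in the inner mitochondrial membrane. Complexes I and II pass electrons from NADH and succinate to ubiquinone, complex III hands them on to cytochrome c, complex IV reduces oxygen, and complex V uses the proton gradient so formed to make ATP. Most subunits are encoded in the nucleus and imported, while the mitochondrial genome supplies core subunits of every complex except complex II, so that each enzyme needs transcripts from both genomes. Nuclear respiratory genes are scattered over the chromosomes and are known as targets of NRF1, of the ETS factor GABPA (also called NRF2) and of YY1. The mitochondrial genes are transcribed as long polycistronic RNAs that are cut into messengers.

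The sequences that frame these genes are given first. Promoters from 250 bases before to 50 bases after the RefSeq start (GRCh38.p14, first start listed for each gene) were found for 62 of the 74 nuclear genes and were searched on both strands for NRF1 (GCATGCGC), ETS (CCGGAAGT) and YY1 (AAGATGGCG) matches. The NRF1 letters were found in 13 of 62 promoters (21.0%), against 3.27% of 27305 promoters in the table and 4.26% of 15843 protein-coding ones. The ETS letters were found in 9 (14.5%, against 4.44% and 6.19%) and the YY1 letters in 8 (12.9%, against 1.85% and 2.74%). At least 1 of the 3 was present in 24 of 62 (38.7%), against 8.9% of all promoters and 12.2% of protein-coding promoters, and in 4 of the 8 promoters at hand of genes that passed the test below. All 8 YY1 matches were on the gene's own strand, and 7 of them lay 10 to 25 bases after the start. A search for an NF-kB sequence (GGANTTTCC), added after the data were seen, found it in 1 of 62 promoters, that of UQCRC2 (1.61%, against 1.64% of all promoters). Matches are descriptions of letters and not of bound sites.

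Printed below are the promoters of 5 genes that passed the test with TNF: NDUFB8 and UQCRC1, which had the largest rises of the nuclear genes, NDUFA13 and COX6A1, which rose and carry an ETS or an NRF1 match, and SDHD, which fell and carries both. Capitals mark the matched letters, and each is read 5′ to 3′ on the gene's strand.
NDUFB8, no match (chr10:100529874-100530173, minus strand): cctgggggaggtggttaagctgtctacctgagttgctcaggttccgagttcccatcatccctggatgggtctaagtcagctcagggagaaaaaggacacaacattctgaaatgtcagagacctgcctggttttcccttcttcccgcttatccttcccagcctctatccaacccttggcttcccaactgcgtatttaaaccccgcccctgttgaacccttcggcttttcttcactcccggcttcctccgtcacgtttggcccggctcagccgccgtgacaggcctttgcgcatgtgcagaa
UQCRC1, YY1 match after the start (chr3:48609597-48609896, minus strand): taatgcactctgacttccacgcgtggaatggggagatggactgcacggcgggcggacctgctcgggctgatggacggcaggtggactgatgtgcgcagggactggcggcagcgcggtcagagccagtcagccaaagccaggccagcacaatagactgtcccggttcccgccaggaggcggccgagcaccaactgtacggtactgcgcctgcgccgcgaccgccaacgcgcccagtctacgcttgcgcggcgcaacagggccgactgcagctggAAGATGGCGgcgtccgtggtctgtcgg
NDUFA13, ETS match (chr19:19515975-19516274, plus strand): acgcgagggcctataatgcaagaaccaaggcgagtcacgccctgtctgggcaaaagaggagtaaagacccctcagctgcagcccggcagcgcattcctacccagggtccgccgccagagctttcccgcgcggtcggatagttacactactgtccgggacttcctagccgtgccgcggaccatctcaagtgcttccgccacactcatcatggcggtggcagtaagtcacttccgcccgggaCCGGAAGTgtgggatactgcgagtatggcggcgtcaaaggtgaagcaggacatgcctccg
COX6A1, NRF1 match on each strand (chr12:120437863-120438162, plus strand): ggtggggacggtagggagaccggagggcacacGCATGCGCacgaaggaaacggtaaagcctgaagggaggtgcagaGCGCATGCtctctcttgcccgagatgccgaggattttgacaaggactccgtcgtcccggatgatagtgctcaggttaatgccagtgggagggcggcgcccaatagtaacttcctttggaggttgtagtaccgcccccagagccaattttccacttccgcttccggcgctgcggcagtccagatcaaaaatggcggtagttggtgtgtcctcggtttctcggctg
SDHD, overlapping NRF1 matches on both strands and an ETS match (chr11:112086623-112086922, plus strand): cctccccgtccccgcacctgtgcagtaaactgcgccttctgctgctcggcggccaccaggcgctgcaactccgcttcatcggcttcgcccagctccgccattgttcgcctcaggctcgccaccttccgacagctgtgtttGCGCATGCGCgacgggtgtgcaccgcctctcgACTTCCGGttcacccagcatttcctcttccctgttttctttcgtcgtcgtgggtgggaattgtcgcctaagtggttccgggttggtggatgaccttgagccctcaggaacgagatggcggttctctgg

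**Figure D1:**
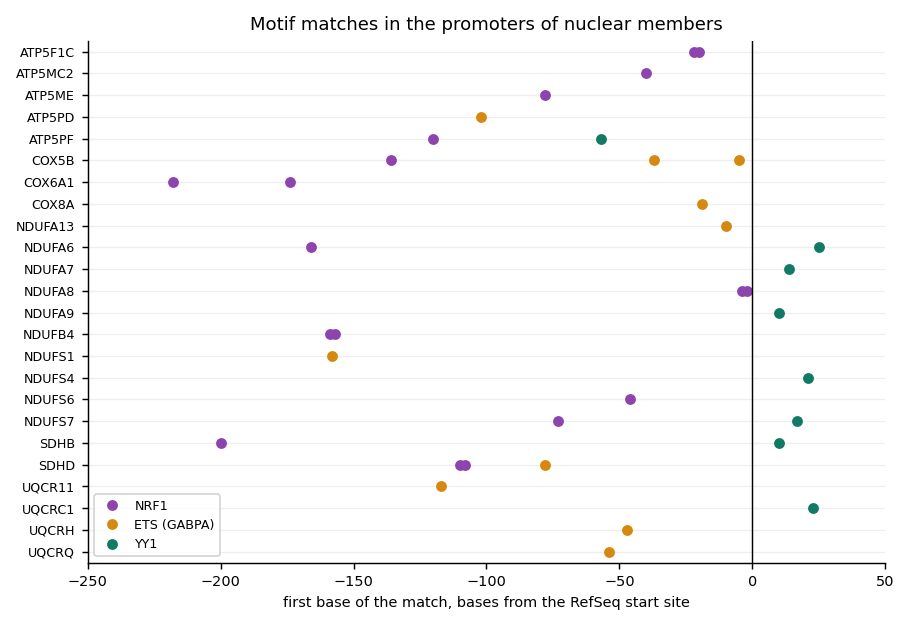
Distance in bases from the RefSeq start site to the first base of each NRF1, ETS or YY1 match in the 24 nuclear promoters that hold one, a row per gene and a point per match. YY1 matches lie 10 to 25 bases after the start in 7 genes and before it in ATP5PF, whereas NRF1 and ETS matches all begin before the start.

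The mitochondrial genes are packed so tightly that some share bases. MT-ATP8 and MT-ATP6, both subunits of complex V, overlap by 46 bases on the plus strand of the mitochondrial genome, in different reading frames, and reads in this stretch (shown because it limits how the 2 genes can be told apart) fit both.
MT-ATP8 and MT-ATP6 shared stretch (chrM:8527-8572, plus strand): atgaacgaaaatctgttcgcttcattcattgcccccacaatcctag
MT-ND4L and MT-ND4 share 7 bases in the same way. MT-ND6 (chrM:14149-14673) is the only one of the 13 on the minus strand.

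Library totals ran from 33317454 to 43125094 counts in TNF-treated cells and from 30989787 to 44373296 in NT cells. CPM are counts scaled to library size after TMM normalization, and a gene was called where its Benjamini-Hochberg adjusted p was under 0.05 in the quasi-likelihood test of edgeR across 16186 genes. Among all genes tested, 14.5% were called higher and 9.9% lower with TNF, in 15.6% all TNF libraries lay above all NT libraries, and in 11.7% all lay below. The response to the cytokine was present, as all 8 genes of a list of TNF targets were higher; ICAM1, which encodes an adhesion molecule, had a log2 fold change of 3.82 (SE, standard error, 0.11; edgeR adjusted p = 8.37e-09). Of 8 melanocyte lineage markers 5 were tested, 0 were called higher and 1 lower, with a median log2 fold change of 0.06. SOX10 was well expressed (1177 CPM in TNF-treated and 1025 CPM in NT cells), MITF, MLANA and PMEL were not called (log2 fold changes 0.06, 0.14 and -0.02), S100B was lower with TNF (log2 fold change -2.50, edgeR adjusted p = 6.77e-06), and TYR, TYRP1 and DCT had 1, 3 and 4 counts over the TNF libraries and 0, 10 and 21 over the NT libraries. Of the leukocyte markers, PTPRC and CD3E had at most 5 counts over a group, CD14 had 24 in each and LYZ was lower, at 3.10 CPM in TNF-treated and 5.80 CPM in NT cells (edgeR adjusted p = 0.0470). Of 4 endothelial markers 3 were tested and 2 were higher (PECAM1 with 334 counts over the TNF and 48 over the NT libraries, KDR with 978 and 668). In the 1 other all TNF libraries lay below all NT libraries, but it was not called. Of 4 keratinocyte markers 1 was higher (KRT5, 223 and 29) and 1 lower (KRT14, 1193 and 2646). Of 4 fibroblast markers 3 were tested and 1 was higher (DCN, 210 and 84). The other 2 had log2 fold changes below 0 and were called lower only with the experiment date as a block. The part of these markers in the results was not tested. Replicate 4 of both groups and NT replicate 2 held more cytoplasmic ribosomal, 7SK and 7SL RNA than the others (0.0136 to 0.0140% of counts against 0.00268 to 0.00449%), so counts are also given without them. As RNA was pooled over all cells of a culture, less RNA per cell and fewer cells with a transcript cannot be told apart.

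Most nuclear respiratory genes did not pass the test. Of 74, 8 were called higher with TNF (10.8%, below the background of 14.5%), 1 was called lower (1.35%, against 9.9%) and 65 were not called. At an unadjusted p under 0.05 in edgeR the counts were 12 and 1 of 74, against 3150 and 2548 of all 16186 genes tested. In 11 of 74 genes all TNF libraries lay above all NT libraries (14.9%, close to the background of 15.6%) and in 1 all lay below (1.35%, against 11.7%). The median log2 fold change of the 74 was 0.07, that of all genes tested was 0.00, and 54 of the 74 values were positive. The 65 genes not called had log2 fold changes from -0.15 to 0.23.

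The lean towards higher values rested largely on 1 library. Relative to the mean of the NT libraries, the median nuclear gene stood at 0.06, 0.01, -0.04 and 0.22 on the log2 scale in TNF replicates 1 to 4, and between -0.02 and 0.03 in the NT libraries. TNF replicate 4 was the highest TNF library for 58 of the 74 genes, and its TMM factor was 0.928, the lowest of the 8. The factors were 0.961 to 1.002 in the other TNF libraries and 1.008 to 1.055 in the NT libraries. Without TNF replicate 4 the median log2 fold change was 0.02 and 40 of 74 values were positive. In that fit 8 genes were called higher (10.8%, against 15.2% of all genes) and 3 lower (4.05%, against 11.4%). Without the 3 libraries with more ribosomal RNA the median was -0.01, with 4 called higher (5.41%, against 12.8%) and 1 lower (1.35%, against 8.33%). With other scalings the counts were 5 higher and 1 lower of 74 (upper-quartile factors) and 4 and 4 (library totals), but these moved all genes alike: over all genes 2045 and 1925 were higher and 2196 and 2514 lower, against 2345 and 1603 with TMM. The median of all genes shifted by -0.0581 and -0.0828, and the nuclear median relative to it was 0.0739 and 0.0726, against 0.0758 with TMM. Leaving out single libraries gave 4 genes called higher without NT replicate 3 (5.41%, against 11.8% of all genes). It gave 5 each without TNF replicate 1, NT replicate 2 or NT replicate 4 (6.76%, against 12.2%, 11.5% and 13.1%). With the experiment date as a block, 15 nuclear genes were called higher and 1 lower, among them all 9 called without it; the block also called more of all genes, 21.3% higher and 18.2% lower, so that the 20.3% of nuclear genes called higher again lay close to the background.

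**Figure D2:**
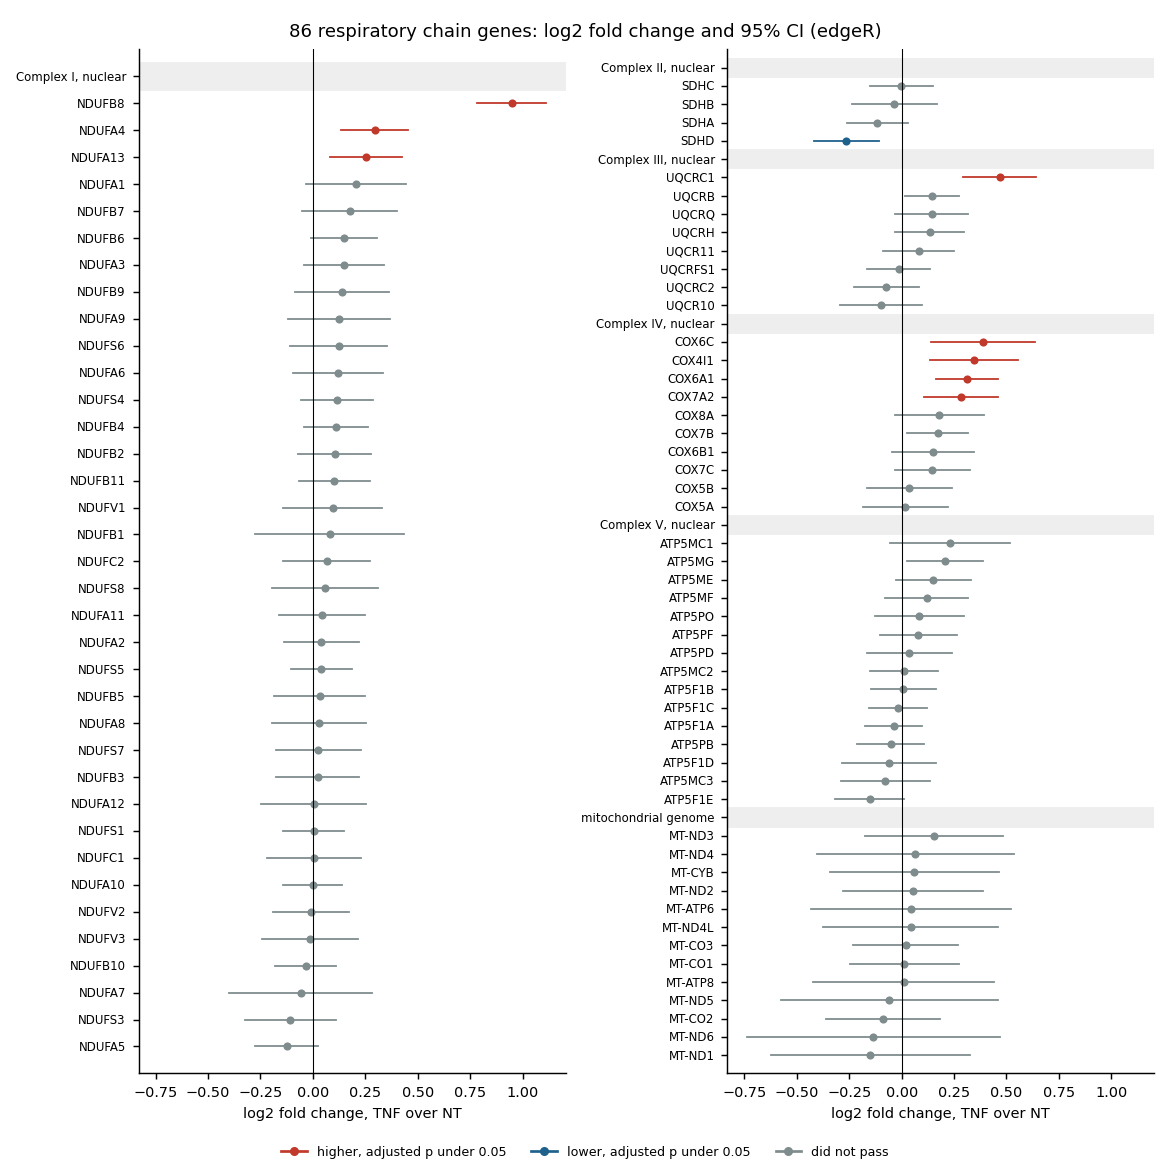
Log2 fold change, TNF over NT, of 86 of the 87 genes with its 95% confidence interval from edgeR (points and bars), nuclear genes by complex and the 13 mitochondrial genes last. Red marks the 8 genes called higher and blue SDHD, the only gene called lower. NDUFB8 stands apart at 0.95, and the widest intervals are those of mitochondrial genes such as MT-ND6.

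NDUFB8, an accessory subunit in the membrane arm of complex I (chromosome 10, 100523740 to 100530000, minus strand), had the largest difference of the 87 genes. It was at 180, 179, 151 and 185 CPM in TNF replicates 1 to 4, against 91.9, 90.1, 90.2 and 88.0 CPM in NT replicates 1 to 4. Even the lowest TNF library lay far above the NT libraries, which hardly differed from each other. The fold change was 1.93 (95% confidence interval 1.72 to 2.16), or 0.95 on the log2 scale (SE 0.08; edgeR adjusted p = 9.60e-06), with an increase in each of the 4 experiments. It was called under all 19 alternatives run, with log2 fold changes from 0.86 to 1.01. Its exons share 325 bases with HIF1AN on the other strand, and HIF1AN was at 80.5 CPM in TNF-treated and 79.0 CPM in NT cells (log2 fold change 0.03, edgeR adjusted p = 0.842). No other complex I subunit came near this size. The next ones were NDUFA4 and NDUFA13.

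NDUFA13, a complex I subunit also known as GRIM-19, was at 180, 162, 160 and 195 CPM with TNF, against 151, 141, 145 and 147 CPM in NT cells. The groups did not overlap, although TNF replicate 3 lay close to NT replicate 1. The log2 fold change was 0.25 (SE 0.08; edgeR adjusted p = 0.0352). The call was lost when TNF replicate 1 or any NT library was left out (edgeR adjusted p = 0.0874 and 0.0556 to 0.103), without both libraries of replicate 4 (0.0681), without the 3 libraries with more ribosomal RNA (0.183), without a filter (0.0774) and with upper-quartile factors or library totals (0.0713 and 0.101), at log2 fold changes of 0.17 to 0.27. Complex I thus had 3 of 37 nuclear genes called higher, while 14.5% of all genes tested were. The remaining 34 nuclear genes of complex I were not called. They include the NADH-oxidizing subunit NDUFV1 (log2 fold change 0.09) and NDUFS1, the largest iron-sulfur subunit (0.00), both of which were named after their values were seen. NDUFB9, the nuclear complex I gene with the most counts per kilobase, was at 241, 245, 221 and 311 CPM with TNF and at 224, 225, 231 and 245 CPM in NT cells. Only TNF replicate 4 was clearly above the NT range, and the log2 fold change of 0.14 did not pass (edgeR adjusted p = 0.381).

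Complex IV held 4 of the 8 genes called higher, among 10 nuclear genes, while 14.5% of all genes tested were called higher. All 10 of its nuclear genes had a positive log2 fold change, with a median of 0.18, but 8 of 10 were positive without TNF replicate 4, and also with upper-quartile factors or library totals, which lowered all genes. In 5 of 10 all TNF libraries lay above all NT libraries, against 15.6% of all genes tested. The count called higher was 1 without NT replicate 3 (against 11.8% of all genes). It was 2 without TNF replicate 1 or 2 or NT replicate 2 or 4 (against 11.5 to 13.1%). Upper-quartile factors and library totals also gave 2 (against 12.6% and 11.9%). The experiment date as a block gave 6 (against 21.3%). The within-experiment medians were 0.12, 0.16, 0.12 and 0.41 in experiments 1 to 4, so the direction of the median held in each experiment and was largest in the fourth. COX4I1, the ubiquitous isoform of regulatory subunit 4 and the nuclear complex IV gene with the most counts per kilobase, was at 338, 335, 312 and 424 CPM with TNF, against 271, 276, 270 and 294 CPM in NT cells. Every TNF library exceeded every NT library, and the log2 fold change was 0.34 (SE 0.10; edgeR adjusted p = 0.0230). COX6A1, the non-muscle isoform of subunit 6A, was at 220, 199, 205 and 222 CPM with TNF, against 180, 169, 172 and 161 CPM in NT cells. The gap between the groups was about as wide as the spread within each, with a log2 fold change of 0.31 (SE 0.07; edgeR adjusted p = 0.00647).

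COX6C, a small structural subunit, was at 48.3, 46.0, 44.8 and 37.9 CPM with TNF, against 37.4, 36.4, 34.1 and 27.2 CPM in NT cells. Replicate 4 was the lowest library of both groups, which brought TNF replicate 4 close to NT replicate 1, and the log2 fold change was 0.39 (SE 0.11; edgeR adjusted p = 0.0283, 0.000271 with the experiment date as a block). COX7A2, the ubiquitous isoform of subunit 7A, was at 69.95, 64.1, 61.2 and 69.8 CPM with TNF, against 60.6, 54.2, 52.2 and 50.6 CPM in NT cells. TNF replicate 3 lay only just above NT replicate 1, and the log2 fold change was 0.28 (SE 0.08; edgeR adjusted p = 0.0255). These calls were less firm than that of NDUFB8. COX4I1 was not called without NT replicate 1, 2 or 3 (edgeR adjusted p = 0.0590, 0.0652 and 0.0683), with log2 fold changes of 0.33 to 0.34 that had hardly moved. COX6A1 was not called without the 3 libraries with more ribosomal RNA (0.0584, log2 fold change 0.24). COX6C was not called without TNF replicate 1, 2 or 3 or NT replicate 3 or 4 (0.0588 to 0.0862) or with upper-quartile factors or library totals (0.0776 and 0.104), at log2 fold changes of 0.29 to 0.39. COX7A2 was not called without TNF replicate 1 or 2 or NT replicate 2, 3 or 4 (0.0540 to 0.0781), without both libraries of replicate 4 (0.0769), without the 3 libraries with more ribosomal RNA (0.173) or with upper-quartile factors or library totals (0.0723 and 0.106), at log2 fold changes of 0.20 to 0.30.

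**Figure D3:**
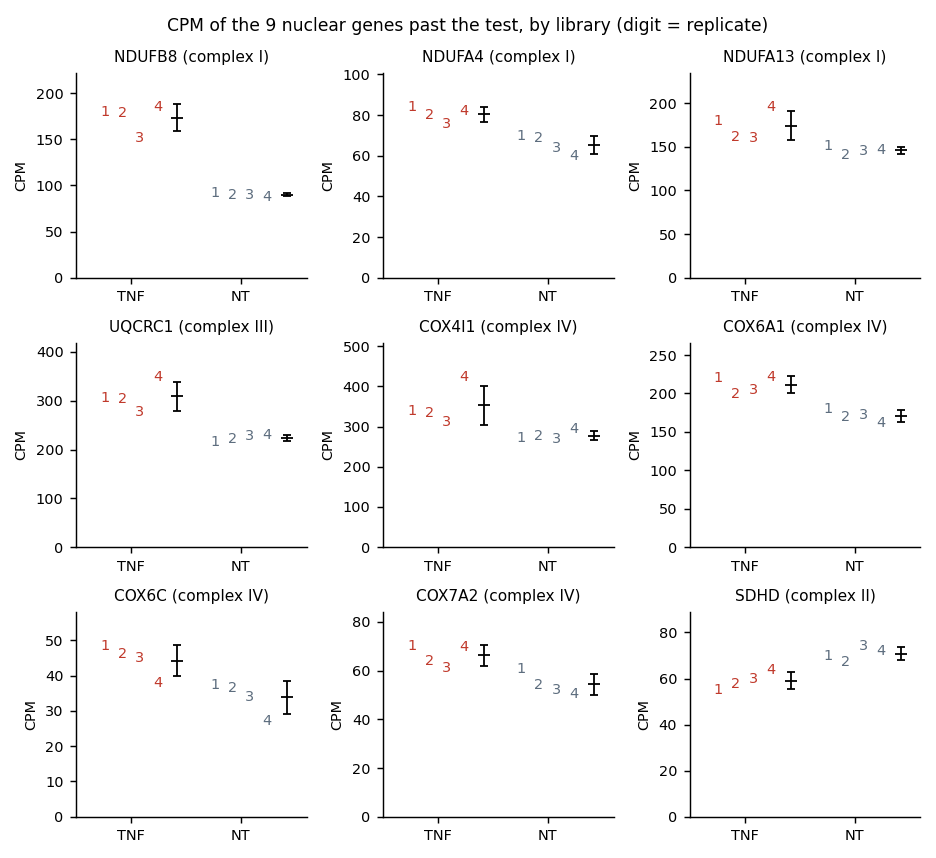
CPM of the 9 nuclear genes past the test, TNF left of NT in each panel, with a digit for the replicate and the mean with its SD (n = 4) beside it. All axes start at 0. The groups do not overlap in any of the panels, and the distance is widest for NDUFB8, at 151 to 185 CPM against 88.0 to 91.9 CPM.

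NDUFA4 carries a complex I symbol and is counted there, but its protein is now placed in complex IV, and RefSeq names it COXFA4. It was at 83.8, 80.0, 75.4 and 82.0 CPM with TNF, against 69.5, 68.7, 63.7 and 59.8 CPM in NT cells. The groups were separate and the log2 fold change was 0.30 (SE 0.07; edgeR adjusted p = 0.0130). It was not called with library totals (0.0634) or without the 3 libraries richer in ribosomal RNA (0.0558). Its paralog C15orf48, also called NMES1 or MOCCI, encodes a protein that can take the place of NDUFA4 in complex IV and is known from inflamed tissues. C15orf48 was at 10.6, 10.8, 8.29 and 14.8 CPM with TNF, against 0.0214, 0.0546, 0.0315 and 0.159 CPM in NT cells. It had 1535 counts over the TNF libraries and 9 over the NT libraries, and the log2 fold change was 7.41 (SE 0.37; edgeR adjusted p = 4.53e-07). The paralog with more counts thus differed little, and the one near 0 in NT cells differed most. NDUFA4L2, the third paralog and a known target of hypoxia signalling, was at 1.09, 0.768, 1.23 and 1.49 CPM with TNF and at 1.71, 1.01, 1.26 and 1.59 CPM in NT cells. These ranges overlapped (log2 fold change -0.29, edgeR adjusted p = 0.490). CPM are not scaled to length, so the levels of the 3 paralogs cannot be ranked from them.

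**Figure D4:**
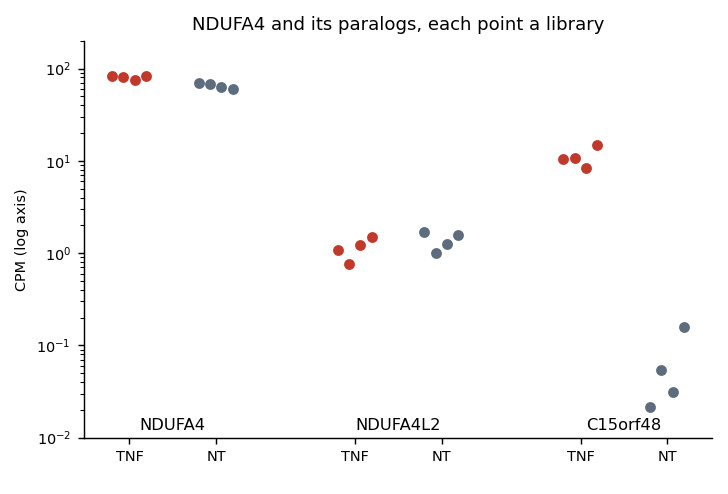
CPM on a log axis of NDUFA4, NDUFA4L2 and C15orf48, TNF left of NT, each point a library. C15orf48 is at 8.29 to 14.8 CPM with TNF and at 0.0214 to 0.159 CPM in NT cells, NDUFA4 is at 75.4 to 83.8 CPM against 59.8 to 69.5 CPM, and the NDUFA4L2 ranges overlap.

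In complex III, UQCRC1 was the 1 gene of 8 called, while 14.5% of all genes tested were called higher. It encodes a core subunit on the matrix side (chromosome 3, 48599002 to 48610976, minus strand). UQCRC1 was at 306, 304, 277 and 349 CPM with TNF, against 215, 222, 228 and 229 CPM in NT cells. The lowest TNF library was still well above the highest NT library. The log2 fold change was 0.47 (SE 0.08; edgeR adjusted p = 0.00145), which is a fold change of 1.38 (95% confidence interval 1.22 to 1.56), and it was called under all 19 alternatives. Its partner UQCRC2, named after its value was seen, was at 87.1, 89.1, 79.5 and 91.1 CPM with TNF and at 95.9, 93.3, 88.5 and 86.7 CPM in NT cells. These values overlapped, with a log2 difference of -0.07 (edgeR adjusted p = 0.515), so the 2 core subunits had differences of opposite sign, of which only 1 passed; the contrast between them was not tested. UQCRH, the hinge protein and the nuclear complex III gene with the most counts per kilobase, was at 313, 312, 305 and 362 CPM with TNF and at 308, 283, 300 and 287 CPM in NT cells (log2 fold change 0.13, edgeR adjusted p = 0.238). Reads of UQCRFS1, the Rieske iron-sulfur protein, may be split with its pseudogenes, which had 5.19% of its counts.

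Complex II, the only complex with no mitochondrial gene, was also the only one whose 4 nuclear genes all had a log2 fold change below 0, with a median of -0.08, although SDHC was very close to 0. In the fits without TNF replicate 1, 2 or 3 or NT replicate 1 or 3, 1 of the 4 values was above 0. SDHD, a membrane anchor subunit (chromosome 11, 112086824 to 112120016, plus strand), was at 55.0, 57.5, 59.6 and 63.7 CPM with TNF, against 69.99, 67.3, 73.96 and 71.9 CPM in NT cells. It was lower in each of the 4 experiments and the groups did not overlap. The log2 fold change was -0.26 (SE 0.07; edgeR adjusted p = 0.0187). The call was lost without TNF replicate 1 or NT replicate 3 (edgeR adjusted p = 0.05 and 0.0603), with a log2 fold change of -0.24 in both fits. SDHB, the iron-sulfur subunit and the complex II gene with the most counts per kilobase, was at 115, 125, 120 and 149 CPM with TNF and at 119, 129, 133 and 140 CPM in NT cells, with overlapping groups (log2 fold change -0.04, edgeR adjusted p = 0.830).

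None of the 15 nuclear genes of complex V was called (1 at an unadjusted p under 0.05, 0 with DESeq2 or limma voom at an adjusted p under 0.05). Their log2 fold changes ran from -0.15 to 0.23 with a median of 0.01. ATP5F1B, the catalytic beta subunit and the nuclear complex V gene with the most counts per kilobase, was at 916, 957, 890 and 999 CPM with TNF and at 956, 987, 917 and 879 CPM in NT cells. The groups overlapped fully, and the 95% confidence interval of the fold change was 0.902 to 1.12. With the experiment date as a block, ATP5MC1 and ATP5MG were called higher (edgeR adjusted p = 0.0445 and 0.00891, against 0.243 and 0.0967 without it). Among the other genes called only with the block were NDUFA1, UQCRB, COX7B and COX8A, with adjusted p from 0.0172 to 0.0437 and log2 fold changes from 0.15 to 0.21. Each of those named was higher in each of the 4 experiments.

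The mitochondrial genes differed from the nuclear ones in how much they varied between libraries. None of the 13 was called in either direction (0 also at an unadjusted p under 0.05 in edgeR, with DESeq2, with limma voom and with the experiment date as a block), and in none were the groups separate. Their log2 fold changes ran from -0.15 for MT-ND1 to 0.15 for MT-ND3, with a median of 0.02. The standard errors were 0.11 to 0.27 (median 0.19), against 0.06 to 0.16 (median 0.08) for the nuclear genes. In NT cells the highest library of a mitochondrial gene was 1.35 to 2.07 times the lowest (median 1.70), against 1.03 to 1.51 (median 1.11) for nuclear genes. The confidence intervals of the fold change reached from 0.599 to 1.45, so a change of the size of that in UQCRC1 would lie inside several of them. A p above the threshold therefore does not show that these transcripts stayed the same.

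The shares of all counts were alike. The 13 genes took 2.92, 3.37, 3.10 and 2.35% of the counts in TNF replicates 1 to 4 and 3.02, 2.89, 3.95 and 2.41% in NT replicates 1 to 4, or 2.93 ± 0.43% with TNF and 3.07 ± 0.64% in NT cells (SD, n = 4 each). The groups overlapped almost wholly. The 74 nuclear genes took 0.828 ± 0.039% with TNF and 0.821 ± 0.023% in NT cells. The ratio of nuclear to mitochondrial counts was 0.287, 0.237, 0.257 and 0.374 with TNF and 0.282, 0.282, 0.208 and 0.331 in NT cells. Replicate 4 had the highest ratio of both groups, and NT replicate 3 the lowest of all. Per kilobase of transcript, the median mitochondrial gene had 2414 CPM with TNF and 2168 CPM in NT cells, and the median nuclear gene 91.2 and 85.6 CPM. On this scale of level the mitochondrial transcripts were 26.5 times as abundant with TNF and 25.3 times in NT cells; lengths are those of 1 transcript per gene and may not be those of the isoforms expressed.

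Within each group the mitochondrial genes moved together from library to library. MT-CO1, the catalytic subunit of complex IV, was at 6553, 7727, 6533 and 6006 CPM with TNF and at 6564, 6068, 8121 and 5836 CPM in NT cells. MT-ND4, a proton-pumping subunit of complex I, was at 4217, 5091, 4799 and 3038 CPM with TNF and at 3967, 3934, 5681 and 2809 CPM in NT cells. NT replicate 3 was the highest NT library for 12 of the 13 genes, NT replicate 4 the lowest for 11, and TNF replicate 4 the lowest TNF library for 11. The difference between groups therefore turned on the experiment: the median of TNF minus NT over the 13 genes was 0.07, 0.33, -0.31 and 0.05 on the log2 scale in experiments 1 to 4. Without NT replicate 3, 12 of the 13 log2 fold changes were positive with a median of 0.20, and without NT replicate 4, 1 of 13 was positive with a median of -0.09. With all libraries, 9 of the 13 values were positive with TMM, 3 with upper-quartile factors and 1 with library totals. These scalings moved all genes nearly alike, so a count relative to the median of all genes could hardly change. That count was 9 of 13 with each scaling, but it ran from 1 to 12 in the fits without 1 library.

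**Figure D5:**
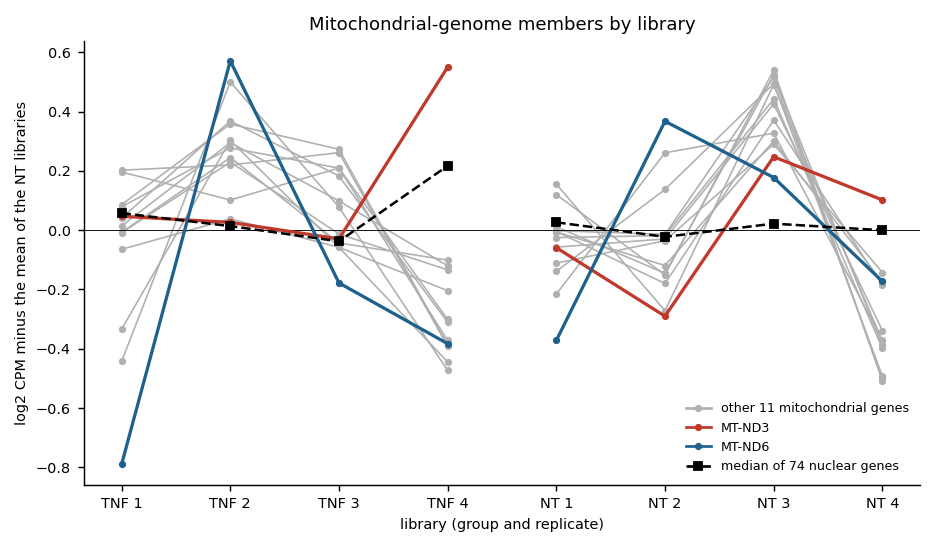
Log2 CPM of the 13 mitochondrial genes in each library minus the mean of the NT libraries, TNF libraries left of NT libraries, with the median of the 74 nuclear genes as black squares; lines join the values of a gene and carry no order. Most mitochondrial genes are lowest in replicate 4 of both groups and highest in NT replicate 3, MT-ND3 is highest in TNF replicate 4, and MT-ND6 spans the widest range.

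MT-ND6 and MT-ND3 did not follow this order in full. MT-ND6, whose messenger is known to lack the poly(A) tail that the others carry, was at 108, 277, 165 and 143 CPM with TNF and at 144, 240, 211 and 165 CPM in NT cells. Its highest libraries were replicate 2 of both groups and its lowest was replicate 1 of both, an order also seen in the 2 mitochondrial ribosomal RNAs, whose share of counts was 0.108, 0.172, 0.122 and 0.142% with TNF and 0.126, 0.190, 0.170 and 0.137% in NT cells. MT-ND3 was at 768, 757, 728 and 1088 CPM with TNF and at 713, 608, 882 and 798 CPM in NT cells. Its highest library was TNF replicate 4, whereas 11 of the 13 genes had their lowest TNF value in that library.

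The other mitochondrial genes followed the common order in NT replicates 3 and 4. MT-ND5, a proton-pumping subunit, was at 797, 1532, 1143 and 780 CPM with TNF and at 933, 1298, 1359 and 837 CPM in NT cells. MT-ND1, the subunit at the quinone site, was at 974, 1514, 1179 and 902 CPM with TNF and at 1115, 1350, 1729 and 872 CPM in NT cells. Both had their highest TNF value in replicate 2, as 10 of the 13 genes did. MT-ND2, a further proton-pumping subunit, was at 3188, 3872, 3379 and 2904 CPM with TNF and at 3033, 3092, 4239 and 2496 CPM in NT cells. MT-ND4L ran from 365 to 545 CPM with TNF and from 344 to 646 CPM in NT cells, and MT-CYB, the cytochrome b of complex III, from 1395 to 2233 CPM with TNF and from 1312 to 2350 CPM in NT cells. In both the NT range enclosed the TNF range. MT-CO2, which receives electrons from cytochrome c, ran from 1941 to 2296 CPM with TNF and from 1965 to 2892 CPM in NT cells. MT-CO3 ran from 4217 to 5360 CPM with TNF and from 4097 to 5530 CPM in NT cells. Both subunits had their highest value in NT replicate 3. MT-ATP6 ran from 2247 to 3533 CPM with TNF and from 2072 to 4285 CPM in NT cells, and MT-ATP8 from 307 to 459 CPM with TNF and from 306 to 558 CPM in NT cells. Reads of some of these genes may have been given to nuclear copies: MTATP6P1 had 13.5% as many counts as MT-ATP6, MTND2P28 had 2.57% as many as MT-ND2, and neither was called (log2 fold changes 0.03 and 0.00).

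Genes that build and run the chain were read from lists. Of 51 assembly factors, 1 was called higher (1.96%, against 14.5% of all genes) and 6 lower (11.8%, against 9.9%), with a median log2 fold change of -0.07. LYRM7, a chaperone of the Rieske protein of complex III, was at 15.4, 16.6, 16.9 and 16.99 CPM with TNF, against 27.7, 22.8, 27.1 and 24.1 CPM in NT cells. This fall, -0.63 on the log2 scale, was the clearest among them (SE 0.09; edgeR adjusted p = 4.84e-04). COA7, a complex IV assembly factor, fell by 0.42 on the log2 scale (edgeR adjusted p = 0.00378). SDHAF3, an assembly factor of complex II, and NUBPL, which delivers iron-sulfur clusters to complex I, fell by 0.46 and 0.37 (edgeR adjusted p = 0.0345 and 0.0282). SDHAF3 was not called in 7 of the 8 fits without 1 library (all but TNF replicate 4, edgeR adjusted p = 0.0598 to 0.0859). NUBPL was not called in 5 of them (TNF replicates 1 and 2 and NT replicates 1, 2 and 3, 0.0551 to 0.0840). The gene called higher was COX17, a copper chaperone of complex IV named after its value was seen, which was higher by 0.27 on the log2 scale (edgeR adjusted p = 0.0129). With the experiment date as a block, 3 assembly factors were called higher (5.88%, against 21.3% of all genes) and 12 lower (23.5%, against 18.2%). Leaving out 1 library gave 3 to 8 of the 51 called lower, while 6.79 to 11.4% of all genes were called lower in these fits.

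Among 19 genes of mitochondrial DNA transcription and upkeep, 1 was called higher (5.26%, against 14.5% of all genes) and 2 lower (10.5%, against 9.9%). With the experiment date as a block 4 were called lower (21.1%, against 18.2% of all genes), and with library totals 6 (31.6%, against 15.5%). TK2, the mitochondrial thymidine kinase, was at 14.2, 12.3, 13.9 and 10.8 CPM with TNF, against 9.32, 8.88, 9.79 and 8.89 CPM in NT cells (log2 fold change 0.48, edgeR adjusted p = 0.0101). MTERF1, a transcription termination factor, was at 11.4, 13.8, 11.95 and 10.3 CPM with TNF, against 17.4, 21.0, 19.1 and 17.1 CPM in NT cells (log2 fold change -0.65, edgeR adjusted p = 0.00172). Both had separate groups. MTERF3, a member of the same family, fell by 0.32 (edgeR adjusted p = 0.0398) and was called in 2 of the 8 fits without 1 library, those without TNF replicate 4 or NT replicate 1 (0.0833 to 0.114 in the others). TFAM, which packages the mitochondrial genome, and POLRMT, its RNA polymerase, had log2 fold changes of -0.17 and 0.04 and were not called (edgeR adjusted p = 0.217 and 0.806; named after their values were seen).

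Of 17 genes of mitochondrial RNA processing and stability, 0 were called higher and 3 lower (17.6%, against 9.9% of all genes), and 14 of 17 values were below 0, with a median of -0.18. Called lower were REXO2, an oligoribonuclease, MTPAP, the mitochondrial poly(A) polymerase, and GRSF1, an RNA-binding protein of RNA granules, which fell by 0.31, 0.31 and 0.24 (edgeR adjusted p = 0.00752, 0.0335 and 0.0170). MTPAP was not called without TNF replicate 2 or 3 or NT replicate 2, 3 or 4 (0.0524 to 0.103), and GRSF1 not without TNF replicate 3 or NT replicate 3 (0.0532 and 0.0574). The count of genes called lower was 7 without TNF replicate 4 (41.2%, against 11.4% of all genes). It was 1 without TNF replicate 3 or NT replicate 3 (against 8.37% and 7.17% of all genes). With the experiment date as a block it was 10 (58.8%, against 18.2%).

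Of 15 nuclear regulators of mitochondrial genes, 13 passed the filter, 2 were called higher (15.4%, against 14.5% of all genes) and 0 lower (2 lower at an unadjusted p under 0.05, 3 with the experiment date as a block). CREB1 was at 33.8, 35.0, 32.5 and 41.8 CPM with TNF, against 27.0, 23.4, 25.7 and 31.5 CPM in NT cells (log2 fold change 0.41, edgeR adjusted p = 0.0201, and 0.0661 and 0.0598 without NT replicate 2 or 3). PERM1, a regulator known from muscle, had 145 counts over the TNF libraries and 28 over the NT libraries (log2 fold change 2.38, edgeR adjusted p = 0.00464). The factors whose motifs are named above were not called: NRF1 had a log2 fold change of -0.16, GABPA of -0.19 and YY1 of -0.02 (edgeR adjusted p = 0.422, 0.114 and 0.851; named after their values were seen). PPARGC1A, which encodes the coactivator PGC-1alpha, had 61 counts over the TNF libraries and 20 over the NT libraries and did not pass the filter.

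In the tricarboxylic acid cycle list 0 of 18 genes were called higher and 1 lower (5.56%, against 9.9% of all genes), and 2 and 2 with the experiment date as a block (11.1% each, against 21.3% and 18.2%). The gene called lower without the block was DLAT, a subunit of pyruvate dehydrogenase, which feeds the cycle; it fell by 0.24 (edgeR adjusted p = 0.0294) and was not called without TNF replicate 1 or 2 or NT replicate 1, 2 or 3 (0.0575 to 0.0895). Of 78 genes of the mitochondrial ribosome, 3 were called higher and 3 lower (3.85% each, against 14.5% and 9.9% of all genes). MRPS24 was at 127, 144, 131 and 184 CPM with TNF, against 74.6, 74.7, 77.9 and 73.97 CPM in NT cells (log2 fold change 0.96, edgeR adjusted p = 1.19e-04). The log2 fold changes of MRPS6 and MRPL36 were 0.71 and 0.49 (edgeR adjusted p = 0.00134 and 0.00215). MRPS6 shares 265 exon bases with SLC5A3 on the same strand, so reads there may be split between them. SLC5A3 had 48818 counts over all libraries, against 20161 for MRPS6. MRPS30 fell by 0.41 (edgeR adjusted p = 7.34e-04). The other genes called lower were MRPS2 and MRPS26, with log2 fold changes of -0.30 and -0.26. The count called lower was 13 without TNF replicate 4 (16.7%, against 11.4% of all genes), also 13 with the experiment date as a block (against 18.2%), and 17 with library totals (21.8%, against 15.5%). Among 19 other subunits and isoforms 14 passed the filter, C15orf48 was called higher and DMAC2L, a factor of complex V, lower by 0.48 (edgeR adjusted p = 0.0483), a call kept in 1 of the 8 fits without 1 library, that without TNF replicate 1 (0.0567 to 0.126 in the others). The tissue-restricted isoforms COX4I2, COX6A2 and COX8C had 0 counts in all libraries, and COX7A1 had 5 counts over the TNF and 2 over the NT libraries. CYC1 and CYCS, which encode cytochrome c1 and cytochrome c, had log2 fold changes of 0.22 and -0.01 and were not called (edgeR adjusted p = 0.217 and 0.967; named after their values were seen).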

How the data were processed

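RNA sequencing of A375 cells, TNF-treated or NT, was analysed in 8 libraries. RNA was isolated on columns by the authors, who prepared stranded libraries of polyadenylated transcripts, aligned the reads to the GRCh38 transcriptome using bowtie2 and estimated counts with RSEM 1.2.25; whether counting used strand is not given in the sources used here. Each gene and library has an expected count in the deposited table, without normalization by the authors. The single-sample files were not used, since for NT samples the date in their names differs from that in the titles; groups come from the labels and replicate numbers from the date in the titles. Libraries of 1 date deviated together from their group means (correlations of 0.35, 0.17, 0.24 and 0.46 over 16186 genes), so the numbers pair the libraries by date.

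After rounding of the expected counts, genes were filtered with edgeR's filter (minimum count 10, total 15) and scaled by TMM, and the test was that of edgeR 4.0.16 (quasi-likelihood, treatment as the only term, Benjamini-Hochberg adjustment over all genes tested, threshold 0.05), in R 4.3.3. In an exact permutation test over 70 assignments (two-sided, on log2 CPM with a prior count of 2), each of the 9 nuclear genes called had p = 0.0286, the smallest that 4 against 4 libraries can give. DESeq2 1.42.0 and limma 3.58.1 (voom), other scalings and filters, the date as a block, a threshold of 0.01 and fits without libraries were alternatives. The fits of the lists under these alternatives and the NF-kB sequence were added after seeing the data. Positions are from GENCODE release 44 on GRCh38 and promoters from RefSeq (GRCh38.p14). Counts per kilobase use the length of the canonical transcript.

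The members, the lists and the tests were chosen with earlier results of these data known. The counts cover 1 nuclear gene and 1 marker whose own values are not reported here. Genes named are the 13 mitochondrial genes, the 8 largest rises and 8 largest falls of nuclear genes past the threshold (8 and 1 were found), the nuclear gene of each complex with the most counts per kilobase, NDUFA4 with its paralogs, and up to 4 genes past the threshold in each list. Of the TNF response list this names BIRC3, CCL2, CXCL8 and ICAM1.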

Additional observations from a re-analysis of the deposited data

Results flagged for a closer look

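In 108 groups of 4 libraries (the named genes and 4 shares of counts, per treatment), 6 held a library whose gap to the nearest other library was above Dixon's critical share of the group's range; chance alone would give about 5.4, 1 in 20. TNF replicate 4 was the one apart in 4 of the 6. It was the high library for MT-ND3, at a log2 CPM of 10.1 against 9.51 to 9.58 in the other TNF libraries, for UQCRH (8.5 against 8.25 to 8.29) and for MTERF3 (4.12 against 3.90 to 3.93), and the low library for MT-ATP6 (11.1 against 11.7 to 11.8). For MRPS30, TNF replicate 2 was the low library, at 6.32 against 6.40 to 6.41. For BIRC3, a target of TNF signalling, NT replicate 4 was the high library, at 1.76 against 0.13 to 0.30 in the other NT libraries.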

How the results depend on the processing

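Some alternatives moved the count of nuclear genes called higher (8) by over 1.5 times. A threshold of 0.01 gave 3, with 9.56% of all genes called higher. The experiment date as a block gave 15 (20.3%, against 21.3% of all genes). Upper-quartile factors gave 5 (6.76%, against 12.6%) and library totals 4 (5.41%, against 11.9%). A fit without NT replicates 2 and 4 and TNF replicate 4, which held more ribosomal RNA, gave 4 (5.41%, against 12.8%). Fits without 1 library gave 4 to 8 (5.41 to 10.8%, against 11.5 to 15.2%). The count called lower (1) was 0 at a threshold of 0.01, with 4.77% of all genes called lower. It was 4 with library totals (5.41%, against 15.5% of all genes) and 2 without both libraries of replicate 4 (2.7%, against 11.5%). Without 1 library it was 0 to 3 (0 to 4.05%, against 6.79 to 11.4%). The median log2 fold change of the nuclear genes (0.072) was 0.012 with upper-quartile factors, -0.014 with library totals, 0.0060 without both libraries of replicate 4, -0.0084 without those 3 libraries and 0.020 to 0.10 without 1 library. With the 2 scalings the median of all genes shifted too, by -0.0581 and -0.0828, and relative to it the nuclear median was 0.0739 and 0.0726, against 0.0758; the shifts without libraries were not shared by all genes, and their cause was not tested. The counts of mitochondrial genes called were 0 under every alternative run. Without 1 library the median log2 fold change of these genes (0.019) ran from -0.086 to 0.20, so its sign depended on the libraries used. Whether depth limits what can be seen there was not tested. Over 50 named genes there were 998 values, from the refits and from the main fit read at a threshold of 0.01. Of these values, 829 kept their sign and their side of the threshold. A loss of the call with the same sign was found in 99 values of 16 genes. In 70 values of 15 genes not called the sign changed, and 0 calls reversed. The block changed no call of the 50 named genes. The genes called only with the block are given with complex V.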
